A study of Homo sapiens with 8 samples.

Results

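The prostaglandin enzymes described here are 10 genes, namely the cyclooxygenases PTGS1 and PTGS2, the prostaglandin D synthase PTGDS, the prostaglandin E synthases PTGES, PTGES2 and PTGES3, the prostaglandin reductases PTGR1 and PTGR2, the dehydrogenase HPGD and the aldo-keto reductase AKR1C3. They were taken by gene symbol from 2 tables of estimated read counts, and the transcript rows of each gene were summed. The knockout table held rows for 9 of the 10 genes and the siRNA table for 8, out of 16169 genes with a row in either table. PTGS1 had no row in either table and PTGS2 none in the siRNA table, which places their transcripts below the sum of 10 counts over 4 libraries that every deposited transcript reaches. PTGDS was chosen with its change in the knockout libraries known, so its values in that comparison are given as a description without a test.

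The RNA came from Hep3B, a line established from a human hepatocellular carcinoma, and was sequenced as 8 libraries in 4 groups of 2. The groups were Hep3B, Hep3B labelled SOX4-/-, and Hep3B given either control siRNA or STAT6 siRNA by transfection. The knockout cells were CRISPR/Cas9 lines #1 and #2 kept in puromycin, and the labels do not say whether libraries 1 and 2 are these lines, nor whether the 2 libraries of a group came from separate cultures. The p-values therefore measure the spread between these libraries, which may be technical.

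Library totals lay between 16266282 and 25353113 expected counts. Levels are given as CPM, a library's count of a gene scaled to a common depth with edgeR's trimmed mean of M-values (TMM). SOX4 itself was measured at 799 and 266 CPM in the Hep3B pair, and at 298 and 302 CPM in the pair labelled SOX4 knockout. Its transcript thus did not separate the groups, and the directions below rest on the label. The paper examined SOX4 protein in its SOX4-/- cells by western blotting, and transcript counts do not measure protein. STAT6 was at 42.5 and 31.4 CPM with control siRNA and at 9.92 and 5.98 CPM with STAT6 siRNA. This difference did not pass the edgeR test after correction over all genes (log2 fold change -2.22, SE 0.72, unadjusted p = 0.00834). STAT6 was also lower in the knockout libraries, at 2.76 and 2.20 CPM against 32.0 and 13.2 CPM in Hep3B (adjusted p = 0.0275 from the edgeR quasi-likelihood test, corrected after Benjamini and Hochberg). All 8 hepatocyte and hepatoma markers exceeded 1 CPM in every library. Their summed level was 11628 to 16182 CPM in Hep3B and 31105 to 52032 CPM in the knockout libraries. AFP did not share this rise, at 149 and 30.6 CPM in Hep3B and 75.2 and 30.9 CPM in the knockout libraries. The 6 leukocyte markers summed to 35.7 to 90.6 CPM in Hep3B and 190 to 441 CPM in the knockout libraries. Most of that sum was LYZ and CD68, while PTPRC stayed at or below 0.227 CPM and CD3E and HBB had no row. The 3 biliary markers summed to 288 to 572 CPM in Hep3B and 628 to 882 CPM in the knockout libraries. Of the 7 stellate, fibroblast and endothelial markers, COL3A1, DCN, VWF and CDH5 had no row, and the rest summed to 4.37 to 6.75 CPM in Hep3B and 16.2 to 24.0 CPM in the knockout libraries. In the siRNA table the sums of hepatocyte, leukocyte and biliary markers overlapped between the groups, and those of stellate, fibroblast and endothelial markers were 6.04 to 8.14 CPM with control siRNA and 9.04 to 15.8 CPM with STAT6 siRNA. The part of these marker levels in the results below was not tested. In bulk RNA, a change in the number of cells that hold a transcript and a change in RNA per cell cannot be told apart.

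Prostaglandins are lipid mediators made from arachidonic acid that phospholipases release from membranes. The cyclooxygenases PTGS1 and PTGS2 convert it to the shared precursor prostaglandin H2, and terminal synthases turn this precursor into prostaglandin D2 or E2. AKR1C3 reduces prostaglandin D2 to an F-type prostaglandin, and HPGD, PTGR1 and PTGR2 inactivate prostaglandins and related lipids in successive steps. PTGDS belongs to the lipocalins, secreted proteins that carry small lipophilic molecules, and is best known from brain, testis and heart.

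The sequences before the annotated starts of PTGDS, PTGS2, PTGES and AKR1C3 are shown because these were the members with the highest ratios of the knockout libraries to Hep3B. They are the 250 bases upstream of the RefSeq start in build GRCh38.p14, written 5′ to 3′ on the strand of the gene. The PTGDS window is chr9:136977254-136977503 on the plus strand, that of PTGS2 is chr1:186680424-186680673 on the minus strand, and that of PTGES is chr9:129753043-129753292 on the minus strand. AKR1C3 has 2 annotated starts, and the window shown is the more downstream of them, chr10:5094164-5094413 on the plus strand. Capitals mark matches, on either strand, to the motifs named after the sequences.
PTGDS: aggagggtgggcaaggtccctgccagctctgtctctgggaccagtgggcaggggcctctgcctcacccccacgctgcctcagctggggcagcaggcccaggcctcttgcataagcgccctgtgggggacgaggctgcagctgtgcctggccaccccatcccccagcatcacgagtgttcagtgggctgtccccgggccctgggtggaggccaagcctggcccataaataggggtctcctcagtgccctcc
PTGS2: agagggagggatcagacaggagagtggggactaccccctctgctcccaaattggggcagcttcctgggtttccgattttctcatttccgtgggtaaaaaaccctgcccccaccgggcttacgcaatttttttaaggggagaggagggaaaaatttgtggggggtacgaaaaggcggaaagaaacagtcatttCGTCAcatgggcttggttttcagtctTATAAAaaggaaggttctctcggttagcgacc
PTGES: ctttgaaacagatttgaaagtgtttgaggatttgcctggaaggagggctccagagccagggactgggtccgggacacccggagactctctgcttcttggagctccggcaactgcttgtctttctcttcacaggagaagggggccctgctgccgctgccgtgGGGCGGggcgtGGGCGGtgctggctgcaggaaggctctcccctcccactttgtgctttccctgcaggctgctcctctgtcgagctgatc
AKR1C3: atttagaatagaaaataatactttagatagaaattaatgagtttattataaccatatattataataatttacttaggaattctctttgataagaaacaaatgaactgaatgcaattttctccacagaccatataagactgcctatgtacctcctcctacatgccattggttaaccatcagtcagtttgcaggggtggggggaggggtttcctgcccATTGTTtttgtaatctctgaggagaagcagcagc
The motifs searched were AACAAT and AACAAAG, which SOX proteins are known to bind, TTCNNNNGAA, the spaced palindrome of STAT6, the TATA box TATAAA, the cyclic AMP response half-site CGTCA and the GC box GGGCGG. None of them overlaps another in the windows shown. The PTGDS window held none of the 6 motifs. The PTGS2 window held TATAAA from -32 to -27 and CGTCA from -58 to -54, where -1 is the last base before the start. PTGES held GGGCGG from -89 to -84 and from -78 to -73. AKR1C3 was the only member with AACAAT, which lies on the minus strand from -34 to -29 in the window shown and on the plus strand from -143 to -138 of the other start. Among all 35116 RefSeq windows of this length, AACAAT occurred in 8.98%, AACAAAG in 4.5%, TTCNNNNGAA in 5.38%, TATAAA in 10.7%, CGTCA in 21.2% and GGGCGG in 42.6%. No member window held AACAAAG or TTCNNNNGAA. A match is a description of the letters, and the absence of one says only that these letters are not in this window.

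**Figure D1:**
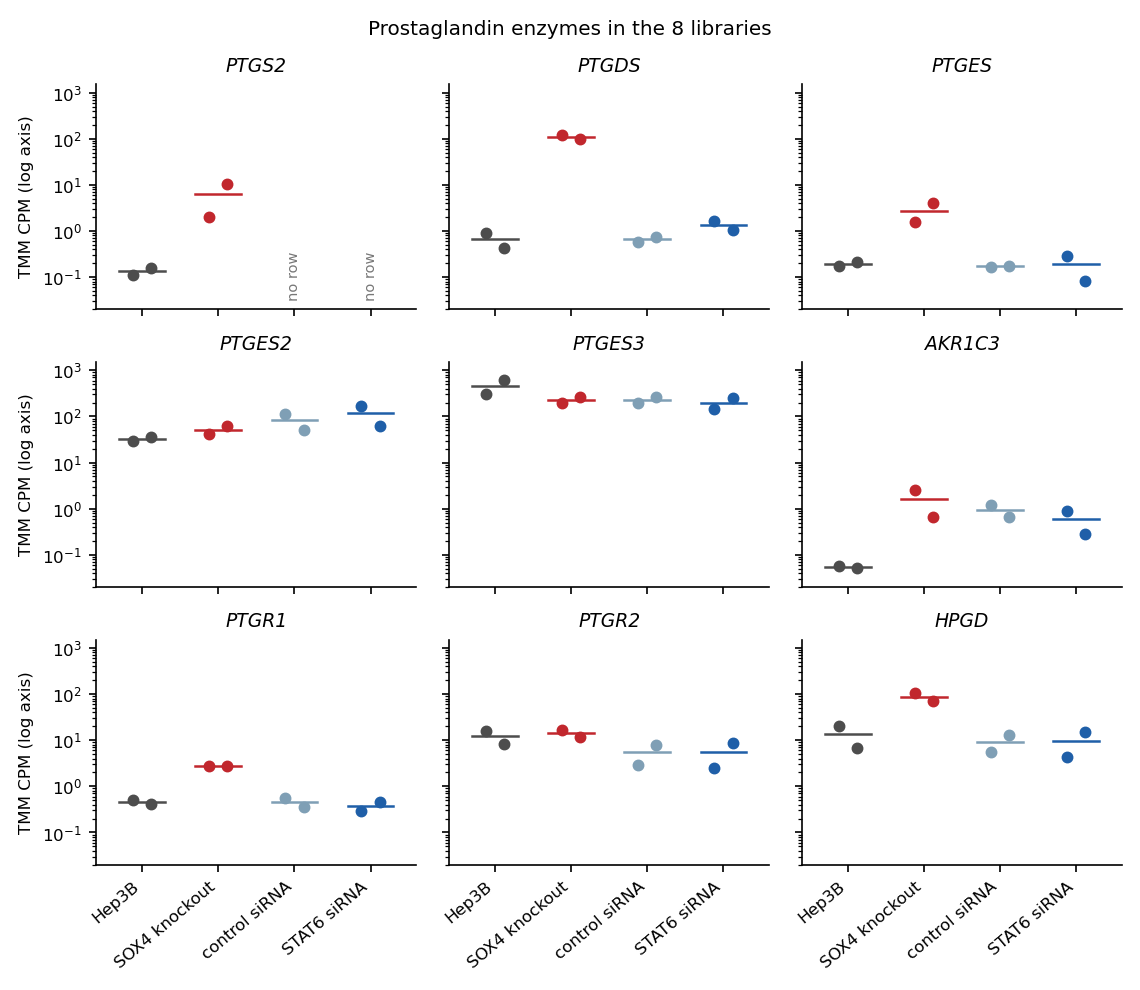
Levels of the 9 prostaglandin enzymes with a row in the tables, as TMM-scaled CPM on a log axis, in each of the 4 groups. Points are single libraries and bars are the means of 2 libraries. PTGDS sits at 118 and 101 CPM in the knockout libraries and at or below 1.62 CPM in the other 6, while PTGES2, PTGES3 and PTGR2 stay within a much narrower range. The 2 tables were scaled separately.

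PTGDS was the member with the highest level in the libraries labelled SOX4 knockout relative to Hep3B. The gene lies on chromosome 9 from 136977504 to 136981742 in GRCh38.p14, and both tables listed its single transcript NM_000954. Its counts were 16 and 8 in Hep3B and 3125 and 1830 in the knockout libraries, library 1 first here and throughout. These correspond to 0.908 and 0.422 CPM against 118 and 101 CPM, and the groups did not overlap. The log2 fold change was 7.36 (SE 0.54), and leaving out single libraries moved it between 6.90 and 7.94. The ratio of the summed counts, scaled by library size, was 169 with a 95% exact counting interval of 114 to 265. Such intervals cover counting error only.

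Per kilobase of transcript, PTGDS stood in the middle of the family in Hep3B and at the level of PTGES3 in the knockout libraries. On the scale of RPKM, the CPM per kilobase, it was at 0.824 ± 0.426 (SD, n = 2) in Hep3B and at 136 ± 15.5 in the knockout libraries. This placed it at percentile 22.7 of the 15197 genes with a known length in Hep3B and at percentile 97.1 in the knockout libraries. Within the family, the Hep3B order by RPKM was PTGES3 at 269, PTGES2 at 16.8, HPGD at 5.94, PTGR2 at 4.76, PTGDS at 0.824, PTGR1 at 0.381, PTGES at 0.107, AKR1C3 at 0.0490 and PTGS2 at 0.0301. HPGD and PTGR2 overlapped in this order, whereas the other neighbours did not. In the knockout libraries the order was PTGDS at 136, PTGES3 at 130, HPGD at 35.4, PTGES2 at 26.7, PTGR2 at 5.56, PTGR1 at 2.17, PTGES at 1.55, PTGS2 at 1.39 and AKR1C3 at 1.23. There PTGDS overlapped with PTGES3, HPGD with PTGES2, PTGR1 with PTGES, PTGES with PTGS2 and PTGS2 with AKR1C3, so these neighbours did not differ beyond their spread.

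With siRNA, PTGDS counts were 10 and 17 in the controls against 22 and 26 after STAT6 siRNA, or 0.565 and 0.755 CPM against 1.62 and 1.07 CPM. Both STAT6 siRNA libraries were above both controls, as in 2.74% of the 13554 genes tested, and in no tested member were both below, as in 5.26%. The log2 fold change of 1.00 (SE 0.80) did not pass the test (edgeR adjusted p = 1.00). Its log2 fold change relative to the knockout effect was not tested, since the gene was chosen on that effect. Both control groups were alike in level, at 0.908 and 0.422 CPM in Hep3B and 0.565 and 0.755 CPM with control siRNA.

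Of the 8 other members tested in the knockout table, PTGS2, PTGES, HPGD and AKR1C3 rose at an adjusted p below 0.05, none fell, and PTGES2, PTGES3, PTGR1 and PTGR2 did not pass. Over all 14415 genes tested, 5.89% were called and 4.5% were called higher. The median log2 fold change of the 8 members was 2.60, beside 0.01 for all genes tested. PTGS2, PTGES, PTGR1 and AKR1C3 passed the filter on low counts only through the knockout libraries, so their count and median carry no weight beyond a description. In 6 of the 8 both knockout libraries were above both Hep3B libraries, as in 30.6% of all genes tested, and in 1, PTGES3, both were below, as in 27.4%. The calls rested on knockout library 2, and those other than PTGS2 rested on knockout library 1 as well. Over all genes, too, far fewer were called with 1 knockout library. Without knockout library 1 the log2 fold changes of PTGS2, PTGES and HPGD were 6.22, 4.34 and 2.38. Without knockout library 2 those of PTGS2, PTGES, HPGD and AKR1C3 were 3.79, 2.95, 2.91 and 5.36. When a group is left with 1 library, that library is assumed to vary like the others.

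**Figure D2:**
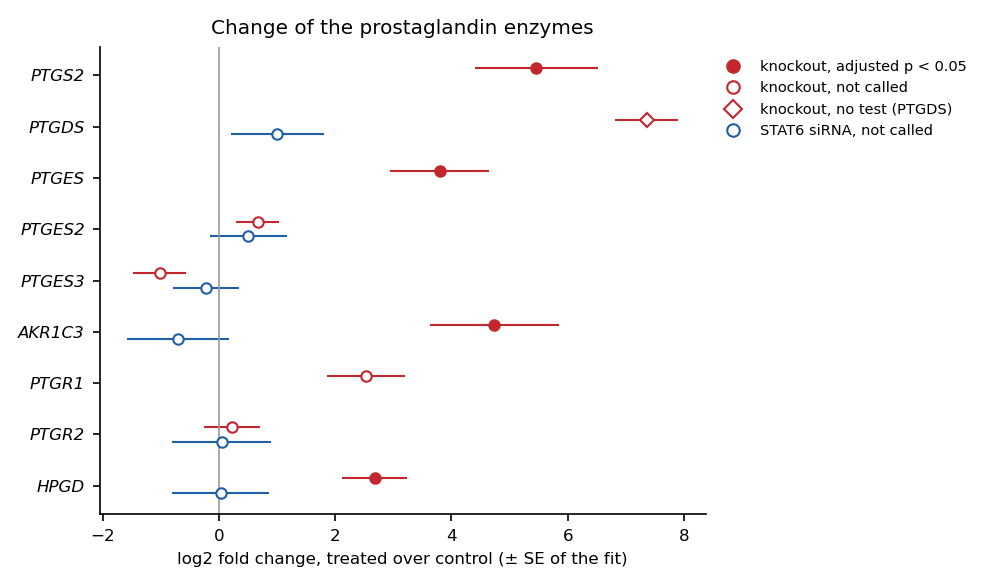
Log2 fold changes of the members tested, with the standard error of the edgeR fit, for SOX4 knockout over Hep3B in red and STAT6 siRNA over control siRNA in blue. Filled points passed an adjusted p of 0.05, open circles did not, and the diamond is PTGDS, which is shown without a test. The knockout values of PTGS2, PTGES, AKR1C3 and HPGD lie between 2.68 and 5.46, and the siRNA values lie between -0.70 and 1.00.

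PTGS2, the inducible cyclooxygenase that catalyses the committed step to prostaglandins, was close to absent in Hep3B and present at a low level in the knockout libraries. It lies on chromosome 1 from 186671791 to 186680423. PTGS2 counts were 2 and 3 in Hep3B and 53 and 192 in the knockout libraries, or 0.114 and 0.158 CPM against 2.01 and 10.6 CPM. The groups did not overlap, and knockout library 2 was the higher of its pair. The log2 fold change was 5.46 (SE 1.06, edgeR adjusted p = 0.0330), and the ratio of summed counts was 40.2 with a 95% counting interval of 17.0 to 125. Without knockout library 2 the log2 fold change was 3.79 and the call was lost (adjusted p = 0.245). PTGS1, the constitutive cyclooxygenase, had no row in either table.

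PTGES, the inducible microsomal prostaglandin E synthase that is coupled to PTGS2 in inflammation, shared the direction of PTGS2 and its higher value in knockout library 2. The gene lies on chromosome 9 from 129738349 to 129753042. Its counts were 3 and 4 in Hep3B and 41 and 72 in the knockout libraries, or 0.170 and 0.211 CPM against 1.55 and 3.96 CPM, without overlap. The log2 fold change was 3.80 (SE 0.85, edgeR adjusted p = 0.0454). The ratio of summed counts was 13.2 with a 95% counting interval of 6.22 to 33.7. The call rested on all 4 libraries, and leaving out single ones gave log2 fold changes of 2.95 to 4.34. PTGES passed the filter on low counts only through the knockout libraries, and without that filter the call was lost (edgeR adjusted p = 0.0523). In the siRNA table PTGES was below the filter, with 3 and 4 counts in the controls and 4 and 2 with STAT6 siRNA.

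The other prostaglandin E synthases were abundant in every library and did not pass the test. PTGES2, a membrane-associated synthase of the Golgi, had 30.0 and 35.1 CPM in Hep3B and 41.5 and 61.6 CPM in the knockout libraries (log2 fold change 0.66, SE 0.37, edgeR adjusted p = 0.297). With siRNA its libraries numbered 1 were high and those numbered 2 low in both groups, at 113 and 50.4 CPM in the controls and 171 and 61.6 CPM with STAT6 siRNA. PTGES3, the cytosolic synthase that is also the HSP90 co-chaperone p23, had 308 and 617 CPM in Hep3B and 197 and 259 CPM in the knockout libraries. Its log2 fold change of -1.02 (SE 0.45) did not pass the edgeR test (adjusted p = 0.203), and without Hep3B library 1 it was -1.50. Without Hep3B library 2 it was -0.44.

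HSP90AA1 and HSP90AB1 were, like PTGES3, higher in Hep3B library 2 than in Hep3B library 1, although by other factors. HSP90AA1, the inducible cytosolic HSP90, was at 774 CPM in Hep3B library 1 and 4917 CPM in Hep3B library 2, and at 967 and 827 CPM in the knockout libraries. HSP90AB1, its constitutive partner, was at 1855 and 5192 CPM in Hep3B and 1032 and 1808 CPM in the knockout libraries. None of the 7 genes of HSP90 and its co-chaperones passed the test in either comparison, and their median log2 change in the knockout table was -0.68. The part of this difference between the Hep3B libraries in the PTGES3 values was not tested.

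AKR1C3, the aldo-keto reductase that makes F-type prostaglandins and also reduces steroids, was close to absent in Hep3B. It had 1 count in each Hep3B library and 67 and 12 counts in the knockout libraries, or 0.0568 and 0.0527 CPM against 2.54 and 0.660 CPM. The log2 fold change was 4.74 (SE 1.11, edgeR adjusted p = 0.0499), and the ratio of summed counts was 32.4 with a 95% counting interval of 8.68 to 272. The call was lost without Hep3B library 1, Hep3B library 2 or knockout library 2, at log2 fold changes of 4.73, 4.69 and 5.36. Without knockout library 1 the gene was below the filter and not tested. It passed the filter on low counts only through the knockout libraries, and without that filter the call was lost (edgeR adjusted p = 0.0599). In the siRNA table it was at 1.19 and 0.667 CPM in the controls and at 0.882 and 0.289 CPM with STAT6 siRNA (log2 fold change -0.70, SE 0.88, adjusted p = 1.00). Thus 1 of the 2 knockout libraries was below both control siRNA libraries, although the tables were scaled separately.

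AKR1C3 lies on chromosome 10 from 5048781 to 5107686 beside AKR1C1, AKR1C2 and AKR1C4, hydroxysteroid dehydrogenases of similar sequence between which an estimate of counts may divide shared reads. All 3 relatives rose in the knockout libraries, although AKR1C2 and AKR1C4 passed the filter on low counts only through those libraries. AKR1C1 was at 5.05 and 2.00 CPM in Hep3B and 111 and 59.6 CPM in the knockout libraries (log2 fold change 4.60, SE 0.60, edgeR adjusted p = 0.0152). AKR1C2 was at 0.511 and 0.264 CPM against 12.2 and 5.44 CPM (log2 fold change 4.49, adjusted p = 0.0234). AKR1C4, the liver form, was at 0.284 and 0.158 CPM against 3.41 and 3.08 CPM (log2 fold change 3.85, adjusted p = 0.0329). AKR1C3 took 0.963% and 2.15% of the counts of the 4 genes in Hep3B, 1.96% and 0.959% in the knockout libraries, 9.81% and 7.35% with control siRNA and 6.51% and 3.94% with STAT6 siRNA. AKR1C1 took 66.7% to 86.7% in all 8 libraries and the AKR1C3 counts are uncertain where reads were shared.

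The enzymes that inactivate prostaglandins were led by HPGD, the hydroxyprostaglandin dehydrogenase that starts their breakdown. HPGD lies on chromosome 4 from 174490175 to 174522893. Its level was 20.4 and 6.805 CPM in Hep3B against 104 and 70.2 CPM after knockout, without overlap, with 359 and 129 counts against 2739 and 1276. The log2 fold change was 2.68 (SE 0.56, edgeR adjusted p = 0.0403), and it was the only called member whose Hep3B libraries both passed the filter on low counts. Without knockout library 1 the log2 fold change was 2.38 (adjusted p = 0.182), and without knockout library 2 it was 2.91 (adjusted p = 0.143). Transcript NM_000860 held 71.0% to 87.3% of its counts in the knockout table. With siRNA, HPGD was at 5.54 and 13.2 CPM in the controls and 4.26 and 14.8 CPM with STAT6 siRNA, and the groups overlapped (log2 fold change 0.03, SE 0.83, adjusted p = 1.00).

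PTGR1 and PTGR2 reduce the keto metabolites that HPGD makes. PTGR1 had 9 and 8 counts in Hep3B and 72 and 49 in the knockout libraries, or 0.511 and 0.422 CPM against 2.73 and 2.69 CPM. Its log2 fold change of 2.52 (SE 0.67) did not pass the edgeR test (adjusted p = 0.0683) but passed with DESeq2 (adjusted p = 0.0301). DESeq2 called 13.5% of the genes it tested, against 5.89% with edgeR. PTGR1 was below the filter in the siRNA table, at 0.565 and 0.355 CPM in the controls and 0.294 and 0.454 CPM with STAT6 siRNA. PTGR2 had 15.8 and 8.39 CPM in Hep3B and 16.7 and 11.5 CPM in the knockout libraries, and the groups overlapped (log2 fold change 0.23, SE 0.48, adjusted p = 0.800). Its siRNA values were 2.94 and 8.04 CPM in the controls and 2.50 and 8.79 CPM with STAT6 siRNA.

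STAT6 siRNA called none of the 6 members tested in its table, nor any of the 13554 genes tested, a background of 0%. At an unadjusted p below 0.05, edgeR listed 14 genes (0.103%) and 0 members, and DESeq2 called 0 genes. STAT6, the targeted gene, was among the 14 but was not called, so the lack of calls does not show a lack of change. The median log2 fold change of the 6 members was 0.04, beside -0.03 for all genes. Libraries of the same number resembled each other more than libraries of the same group for PTGES2, PTGES3, PTGR2 and HPGD. For example, HPGD was at 13.2 and 14.8 CPM in the libraries numbered 2 against 5.54 and 4.26 CPM in those numbered 1. At this spread, in a fit without the library number, the standard errors of the members' log2 fold changes were 0.57 to 0.88. With the library number entered as a block they were 0.21 to 0.54. That fit called 62 genes and 0 members, although the labels do not state that the numbers pair cultures.

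The difference between the knockout effect and the STAT6 siRNA effect was tested for the 7 members other than PTGDS that passed the filter over all 8 libraries. None was called by edgeR, with a background of 0.0769% of 14313 genes. At an unadjusted p below 0.05 edgeR listed 939 genes (6.56%) and 4 of the 7 members, namely AKR1C3, PTGES, PTGR1 and HPGD. In the knockout comparison AKR1C3, PTGES and PTGR1 passed the filter on low counts only through the knockout libraries. The members were also chosen with earlier results of these data known, so this count is a description only. The largest difference on the log2 scale was that of AKR1C3, at 5.30 (SE 1.45, adjusted p = 0.233), followed by PTGES at 3.71 (adjusted p = 0.541), PTGR1 at 2.68 (adjusted p = 0.615) and HPGD at 2.57 (adjusted p = 0.578). PTGS2 was not in this fit, since the siRNA table lacked it. The members called in the knockout table are thus not shown to respond differently to STAT6 siRNA.

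Hep3B and Hep3B with control siRNA were compared in the same fit, in which transfection and the table of origin cannot be told apart. None of the 8 members tested passed, with a background of 0.00699%. Of the members, 2 had an unadjusted p below 0.05, and the unadjusted background was 19.6%. These were AKR1C3, whose log2 difference was 4.15 (SE 1.15, adjusted p = 0.173) toward control siRNA, and PTGES2, whose log2 difference was 1.56 (SE 0.62, adjusted p = 0.212) in the same direction. Without control siRNA library 2 the log2 differences of AKR1C3 and PTGES2 were 4.51 and 2.03. This AKR1C3 difference and its knockout difference are both measured against the same Hep3B libraries, with 1 count in each.

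Around the enzymes, the pathway was described from a list of 46 genes that release arachidonate, act on it in other branches, or transport and sense prostaglandins, of which 28 were tested in the knockout table. Of the 28, 6 rose, 1 fell and 21 did not pass, and the median log2 fold change was 1.19 beside 0.01 for all genes. The called shares in the 2 directions over all genes were 4.5% and 1.39%. Of the 28, 9 passed the filter only through the knockout libraries, and these include 4 of the 6 that rose, namely MGLL, AKR1C2, AKR1C4 and PTGER2, so the count and the median are a description only. With STAT6 siRNA, 0 of the 23 tested were called by edgeR, and 0 had an unadjusted p below 0.05. The knockout calls rested on knockout library 2, and those other than AKR1C1 and CBR1 rested on knockout library 1 as well. Over all genes, too, far fewer were called with 1 knockout library. Without knockout library 1 the log2 fold changes of AKR1C1 and CBR1 were 4.09 and -11.2.

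Of the phospholipases and lipases, 2 of the 11 tested rose. PLA2G6, a calcium-independent phospholipase, was at 5.50 and 4.27 CPM in Hep3B and 24.99 and 22.7 CPM in the knockout libraries (log2 fold change 2.28, SE 0.42, edgeR adjusted p = 0.0292). MGLL, the monoacylglycerol lipase that frees arachidonate from an endocannabinoid, was at 0.624 and 0.105 CPM against 11.1 and 11.7 CPM (log2 fold change 4.96, SE 0.81, adjusted p = 0.0226). DAGLA and DAGLB, the diacylglycerol lipases, were among the most abundant genes of the list, at a mean of 87.1 and 86.1 CPM over the 8 libraries. DAGLA was at 101 and 54.1 CPM in Hep3B and 76.5 and 71.6 CPM in the knockout libraries, and did not pass. DAGLB was at 90.6 and 100 CPM in Hep3B and 48.1 and 43.1 CPM in the knockout libraries, without overlap. Its log2 fold change of -1.07 (SE 0.33) did not pass the edgeR test (adjusted p = 0.0975) but passed with DESeq2 (adjusted p = 0.0409). Of the 11, 8 were higher without overlap and 1, DAGLB, was lower, as in 30.6% and 27.4% of all genes tested.

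Of the other terminal synthases and carbonyl-reducing enzymes, CBR1, which reduces prostaglandin E2 to an F-type prostaglandin, was the gene that fell. It had 149 and 473 counts in Hep3B and 1 and 0 counts in knockout libraries 1 and 2, or 8.46 and 24.9 CPM against 0.0379 and 0 CPM. The ratio of Hep3B to knockout was 758 with a 95% counting interval of 136 to 30001, and edgeR gave an adjusted p of 0.0111. CBR1 passed the filter on low counts only through the Hep3B libraries, so this call is a description only. In the siRNA table CBR1 was at 20.8 and 16.1 CPM in the controls and at 17.8 and 16.1 CPM with STAT6 siRNA. PRXL2B, a prostamide and F-type prostaglandin synthase, had the highest mean of the list at 109 CPM over the 8 libraries. It was at 82.6 and 30.0 CPM in Hep3B and 146 and 227 CPM in the knockout libraries, and did not pass (adjusted p = 0.0927). HPGDS, the other prostaglandin D synthase, had no row in either table, nor had PTGIS and TBXAS1, which make prostacyclin and thromboxane.

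Of the 6 receptors and receptor regulators tested, PTGER2 rose. PTGER2, a prostaglandin E2 receptor that raises cyclic AMP, was at 1.42 and 0.264 CPM in Hep3B and 10.5 and 16.4 CPM in the knockout libraries (log2 fold change 4.001, SE 0.80, edgeR adjusted p = 0.0359). PTGFRN, a negative regulator of the F-type receptor, was the second most abundant gene of the list at a mean of 91.6 CPM and did not pass (adjusted p = 0.135). PTGDR, the classical prostaglandin D2 receptor, had no row in either table. PTGDR2, the other prostaglandin D2 receptor, was at 0.454 and 0.475 CPM in Hep3B and 4.81 and 2.25 CPM in the knockout libraries, without overlap. Its log2 fold change of 2.92 (SE 0.73) did not pass the edgeR test (adjusted p = 0.0576) but passed with DESeq2 (adjusted p = 0.00909). PTGDR2 too passed the filter on low counts only through the knockout libraries. Neither of the 2 transporters and none of the 4 genes of the leukotriene and lipoxygenase branch passed. Both transporters were lower without overlap, as in 27.4% of all genes tested. SLCO2A1 had 30 and 30 counts in Hep3B and 0 and 8 in the knockout libraries (log2 fold change -2.99). It passed the filter on low counts only through Hep3B. ABCC4 was at 42.9 and 51.3 CPM against 22.9 and 30.6 CPM (log2 fold change -0.82). In 3 of the 4 genes of that branch both knockout libraries were above both Hep3B libraries, as in 30.6%.

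**Figure D3:**
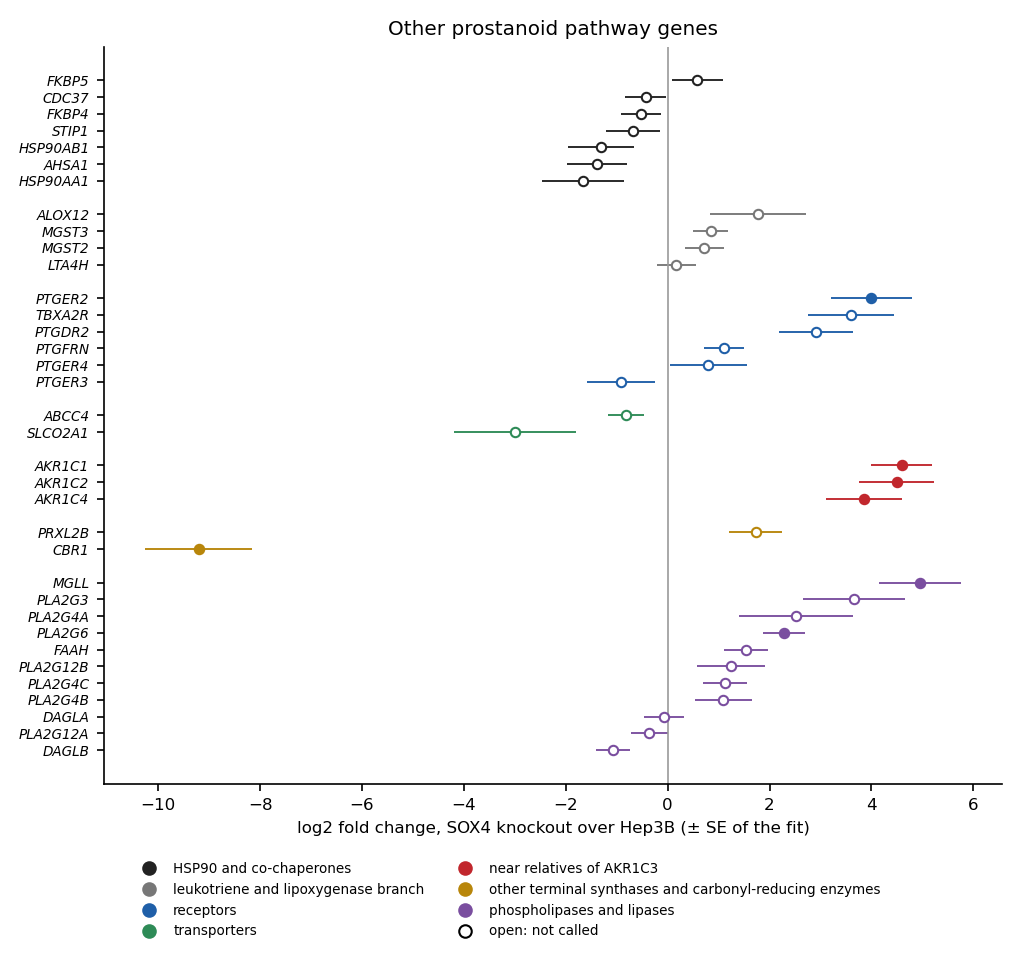
Log2 fold changes, SOX4 knockout over Hep3B, with the standard error of the edgeR fit, for the 28 tested genes of the prostanoid pathway list and the 7 genes of HSP90 and its co-chaperones. Filled points passed an adjusted p of 0.05 and open points did not. CBR1, at -9.21, stands apart to the left with 1 count in the knockout libraries, so its fitted value depends on how low counts are treated, and the AKR1C relatives, MGLL and PTGER2 lie between 3.85 and 4.96.

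Genes near PTGDS on chromosome 9 were also higher in the knockout libraries. Of the 3 tested genes on each side, C8G, CLIC3 and ABCA2 rose and TRAF2, FBXW5 and C9orf142 did not pass. C8G, which encodes the lipocalin subunit of complement component C8, lies 30.5 kb away. It was at 3.01 and 3.69 CPM in Hep3B and 28.2 and 33.3 CPM in the knockout libraries (log2 fold change 3.19, SE 0.42, edgeR adjusted p = 0.0152). CLIC3, an intracellular chloride channel protein 12.9 kb away on the other side, was at 0.454 and 0.527 CPM against 3.45 and 5.50 CPM (log2 fold change 3.17, SE 0.67, adjusted p = 0.0414), and it passed the filter on low counts only through the knockout libraries. ABCA2, a lipid transporter, was at 30.8 and 15.4 CPM against 90.7 and 75.7 CPM (log2 fold change 1.85, SE 0.43, adjusted p = 0.0499). LCNL1, a lipocalin-like gene 1.25 kb from PTGDS, had 0 counts in both Hep3B libraries and 0.719 and 0.110 CPM in the knockout libraries, and was not tested.

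A wider span, chosen after these values were seen, was described by counts. Within 100 kb of PTGDS 5 of 10 tested genes rose and none fell, the further 2 being NPDC1, at a log2 fold change of 1.80 (edgeR adjusted p = 0.0381), and ENTPD2, at 2.08 (adjusted p = 0.0473). Within 250 kb 6 of 32 rose, the further gene being TMEM141 at 2.42 (adjusted p = 0.0212), and within 1000 kb 7 of 63 rose. Over all 569 tested genes of chromosome 9 except PTGDS, those in these windows included, 4.22% rose and the median log2 fold change was -0.05, against a median of 1.41 within 100 kb. The calls among the 10 rested on both knockout libraries, as most calls over all genes did. Without knockout library 1 or without knockout library 2 the log2 fold changes of C8G were 3.32 and 3.03. In place of the 5, 2 were called with at least 10 counts in every library (C8G and NPDC1) and 2 in the fit of all 8 libraries (C8G and CLIC3). Of these neighbours, none passed with STAT6 siRNA.

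**Figure D4:**
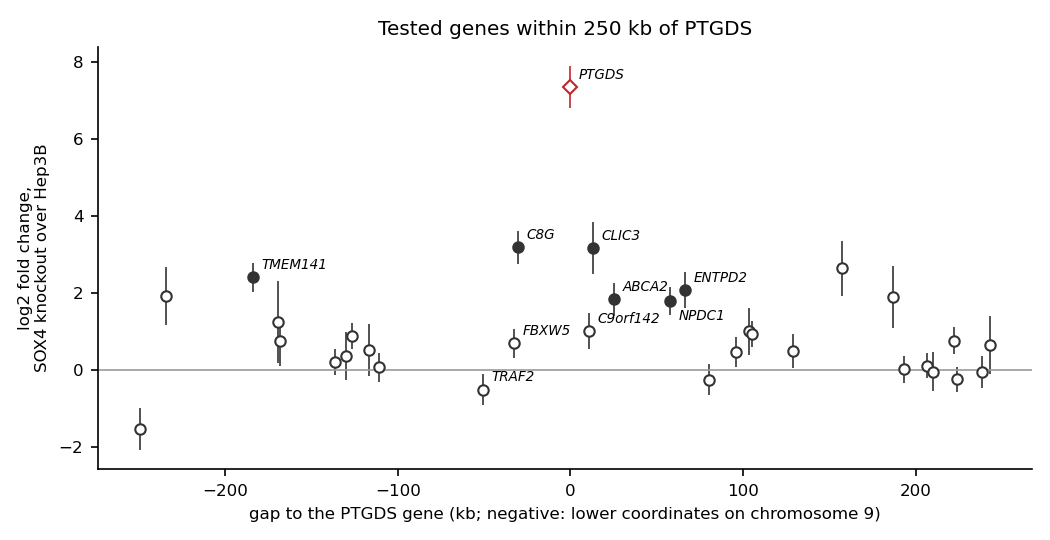
Log2 fold change, SOX4 knockout over Hep3B, of the tested genes within 250 kb of PTGDS, against the gap in kb between each gene and PTGDS. Bars are the standard error of the edgeR fit, filled points passed an adjusted p of 0.05, and the diamond is PTGDS, shown without a test. C8G and CLIC3, at 3.19 and 3.17, stand above the other neighbours, and the called genes other than TMEM141 lie within 100 kb.

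COL8A2, C2, CAND2 and NPR1 were among the 5 genes whose log2 CPM was most like that of PTGDS over the 8 libraries, of 10986 others whose counts averaged 100 or more a library. Their Pearson correlations with PTGDS were 0.994, 0.992, 0.992 and 0.989. These describe 8 libraries in which the 2 knockout libraries stand apart from the other 6, so the correlations rest on that split. C2, a complement protease, came closest in size of these 4, at 3.88 and 3.96 CPM in Hep3B, 184 and 118 CPM in the knockout libraries and 3.41 to 8.71 CPM in the siRNA libraries, on a scale common to the 8 libraries. Of the members, PTGR1 was nearest with a correlation of 0.960, then PTGES with 0.925 and HPGD with 0.873. PTGES3, at -0.50, and PTGES2, at -0.15, had negative correlations.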

How the data were processed

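RNA-seq libraries of Hep3B cells in 4 groups of 2 were analysed. The authors deposited expected counts per RefSeq transcript, estimated read counts that were not normalized. The submitters' notes name hg38, STAR and Partek, and their versions and whether counting used strand are not given in the sources used here. No deposited transcript has a sum below 10 counts in its table. Gene names altered to dates by spreadsheet software numbered 19 per table. Counts were summed per gene and rounded, and totals of 16266282 to 25353113 limited what could be seen of rare transcripts.

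Each table was fitted with edgeR 4.0.16 in R 4.3.3 (filterByExpr, TMM, glmQLFit, glmQLFTest, 2-sided), with genes called at a Benjamini-Hochberg adjusted p below 0.05 over all genes tested. The SE is the log2 fold change divided by the square root of F. A fit of all 8 libraries gave the difference of effects and the comparison of controls. RPKM used transcript lengths from GENCODE release 29. Intervals of count ratios are exact and conditional on the sum of counts. Motifs were searched in RefSeq windows, which were found for all 10 members.

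The members and the lists were chosen with earlier results of these data known. Genes named are the members, SOX4, STAT6, the AKR1C relatives, called and the 3 most abundant genes of the pathway list, the 3 tested neighbours of PTGDS on each side and the 5 genes most correlated with it, of which 1 is not reported here. HSP90 genes, LCNL1, NPDC1, ENTPD2, TMEM141, the markers and the absent or uncalled pathway genes were chosen for mention once their values had been seen. The scripts were tested on simulated counts. Alternatives were other scaling factors, filters, DESeq2 1.42.0, legacy = FALSE, the library number entered as a block, all 8 libraries fitted together, a single transcript per gene and leaving out each library. The library numbers are not stated to pair cultures, and the correlation of deviations between same-numbered libraries was -0.08 for the knockout table against 0.87 for that of siRNA.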

Additional observations from a re-analysis of the deposited data

How the results depend on the processing

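The 4 calls among the members in the knockout comparison became 5 with DESeq2, which added PTGR1. They were 2 without a filter, 2 with the replicate block and 2 in the fit of all 8 libraries, 1 with at least 10 counts in every library, and 0 to 3 when each library was left out. Pathway calls, 7 in the main analysis, were 13 with DESeq2, 2 with at least 10 counts and 0 to 10 when each library was left out. Calls over all genes, 849 in the main analysis, were 2122 with DESeq2, 518 with at least 10 counts, 438 in the fit of all 8 libraries and 21 to 2298 when each library was left out. The filters change which low genes are tested, and otherwise the cause was not tested. No member was called with STAT6 siRNA under any of the 12 alternatives, and none in the difference of effects under any of 13. The replicate block raised the STAT6 siRNA calls from 0 to 62 genes, of which 1, PLA2G4B, is in the pathway list (log2 fold change -1.93). Among the members, the block gave PTGDS and PTGES2 unadjusted edgeR p-values of 0.0440 and 0.0340 with STAT6 siRNA (adjusted p = 0.437 and 0.419). With this block PTGES and AKR1C3 lost their knockout calls (adjusted p = 0.0518 and 0.0568) and PTGS2 and HPGD kept theirs. In the control comparison, chosen alternatives after seeing the data gave 0 to 2 calls when each library was left out.

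Reversed signs occurred among uncalled members. In the knockout comparison leaving out single libraries gave PTGR2 values of -0.17 to 0.69, with -0.06 without knockout library 1. With STAT6 siRNA, PTGR2 and HPGD were -0.0052 and -0.0524 with the replicate block, and -0.23 and -0.10 for their highest transcript. When each siRNA library was left out, PTGR2 ranged from -1.14 to 0.95, HPGD from -1.14 to 0.79, PTGES2 from -0.41 to 1.29 and PTGES3 from -0.67 to 0.12. The share of AKR1C3 among the AKR1C counts in knockout library 1, 1.96%, was 0.868% from the highest transcripts alone. Members at 1 to 4 counts a library in Hep3B are limited by depth.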
